A study of Mus musculus with 9 samples.

Results

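Fibroblast growth factors (FGFs) and their receptors were followed through the cells of the adult mouse knee. The genes were fixed by name and not by any measured value: the ligands *Fgf2*, *Fgf7*, *Fgf10* and *Fgf18* and the receptors *Fgfr1*, *Fgfr2* and *Fgfr3*. These are 7 of the 54534 genes listed for the 9 single-cell RNA-seq libraries, and all 7 were found under 1 gene identifier each. Unique molecular identifiers (UMIs), each standing for 1 captured transcript, were counted for each gene in each cell.

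FGF ligands are secreted proteins that bind receptor tyrosine kinases together with heparan sulphate at the cell surface. *Fgf7* and *Fgf10* are ligands made by mesenchymal cells that act mainly on the epithelial splice form of *Fgfr2*, *Fgf2* binds several of the receptors, and *Fgf18* is best known in cartilage and bone, where *Fgfr3* restrains chondrocyte growth. Signalling through the receptors induces Sprouty and Dusp feedback genes and transcription factors of the Etv family, and gene counts do not separate the splice forms of a receptor.

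All mice carried Gdf5-Cre, a Cre-activated tdTomato reporter (Tom) and a nuclear GFP driven by *Pdgfrα*, so controls and injured animals shared the same alleles. Gdf5-Cre is active in the embryonic joint interzone, and Tom+ cells are its descendants, whereas Tom-GFP+ cells lie outside that lineage and express *Pdgfrα*; both were sorted live from digested knees. Steady-state knees of mice labelled 11 to 12 weeks old gave 2 Tom+ libraries and 1 Tom-GFP+ library, and knees 6 days after surgery, in which the cartilage of the trochlear groove was scratched through its full thickness, gave 4 Tom+ and 2 Tom-GFP+ libraries. The Tom-GFP+ steady state therefore has no replicate, and each library samples only sorted, digested cells. The study describes the Tom-GFP+ cells as taken from matched mice, but the labels do not say which libraries share a mouse, so all fits between lineages treat the libraries as unrelated. The libraries held between 2866464 and 15033902 UMIs, and 4788 cells were kept, with median depths of 8050.5 to 18567 UMIs per cell. Any 2 libraries shared at most 2 cell barcodes.

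Cells were assigned to classes by marker genes, none of them an FGF gene. Sublining fibroblasts (2381 cells) carried *Thy1* in 77.1% and *Cd34* in 93.1% of cells, and lining fibroblasts, the fibroblast-like synoviocytes (FLS; 671 cells), were required to carry *Prg4* and *Clic5* and held *Htra4* in 98.4% and *Col22a1* in 97.2% of cells. The chondrocyte-lineage class (114 cells) held *Acan* in 96.5% but *Matn3* in 36.8% of cells, and the osteoblast-lineage class (186 cells) held *Ibsp* in 93.5% but *Dmp1* in 9.68% of cells. The other classes used were Prg4+ Creb5+ cells (256), Lrrc15+ cells (508, none of them in the 3 steady-state libraries), tenocyte-lineage cells (218), mural cells (89) and immune cells (108), and within the sublining the gates F1 to F6. The gate of F4, the universal fibroblasts (500 cells), required at least 3 of *Dpp4*, *Pi16*, *Cd248*, *Sema3c*, *Anxa3*, *Limch1* and *Efhd1*. No single one of these markers was required. The Prg4+ Creb5+ gate required *Prg4*, no *Clic5* or *Thy1* UMI, and at least 3 of *Prg4*, *Creb5*, *Dlx3*, *F13a1* and *Fgl2*. *Creb5* itself was not required. A further 201 cells passed no gate. Within 0.05 of another gate's score lay 85 sublining, 4 lining, 38 tenocyte-lineage and 63 Lrrc15+ cells. Of the last 2 gates, 42.7% and 39.0% of cells fell in the cluster of the same name, and 16.97% of tenocyte-gated cells fell in the osteoblast-lineage cluster, which has *Fgfr2* among its leading genes. Levels are given as CPM, a gene's share of all UMIs of a class in a library times 1e6, for libraries with at least 10 cells of the class, and n counts libraries. A gene's level in one class is compared with its own level in another class, not with that of another gene, because reads were taken from transcript 5' ends and lengths were not modelled.

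The genes are protein coding and lie on 7 chromosomes of GRCm38: *Fgf7* at chr2:126034658-126091185, *Fgf2* at chr3:37348346-37410108, *Fgfr3* at chr5:33721674-33737068, *Fgfr1* at chr8:25513654-25575718 and *Fgf10* at chr13:118669791-118792115 on the + strand, and *Fgfr2* at chr7:130162451-133123350 and *Fgf18* at chr11:33117430-33147400 on the - strand. They differed widely in how often they were seen. *Fgfr1* had 7023 UMIs in 65.5% of the kept cells, *Fgf7* had 2835 UMIs in 27.1%, *Fgfr2* had 986 in 11.7% and *Fgf18* had 579 in 10.1%. The sparse genes were *Fgf2* with 334 UMIs, *Fgfr3* with 242 and *Fgf10* with 214, seen in 6.18%, 2.72% and 3.49% of cells.

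*Fgf7*, the keratinocyte growth factor, was sharply divided between sublining fibroblasts and FLS. In sublining fibroblasts it stood at 122 and 109.6 CPM in the Tom+ steady-state libraries and at 139 CPM in the Tom-GFP+ steady-state library. In the injured libraries the sublining held 44.6, 51.9, 46.7 and 60.6 CPM (Tom+) and 82.9 and 53.2 CPM (Tom-GFP+). FLS held between 0 and 4.92 CPM of *Fgf7* in the 8 libraries with enough lining cells, so the classes did not overlap in any library. The log2 fold change of lining against sublining was -5.40 (SE 0.27, n = 8 libraries, adjusted p = 1.7e-09, edgeR quasi-likelihood test with library as a block), or 42.4-fold lower. All 4 members that could be tested in this comparison passed at a false discovery rate of 0.05, each of them lower in the lining, in a comparison where 38.8% of the 9901 genes tested passed. The p-values measure the spread between libraries, which may be technical in part.

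The difference between FLS and the sublining was as clear in the share of cells. When each cell was thinned to 3000 UMIs, 19.8% of 2298 sublining cells held an *Fgf7* UMI (exact 95% interval 18.2% to 21.5%), 0.149% of 669 FLS did (0.00378% to 0.830%), and none of 90 immune cells did, which sets the background (median depths of all cells 10097, 17495 and 8300.5 UMIs). Without thinning the shares were 40.4%, 1.94% and 0.926%. The intervals cover counting error only, and 83 sublining, 2 lining and 18 immune cells under 3000 UMIs were left out. Among 254 thinned Prg4+ Creb5+ cells 4.72% held an *Fgf7* UMI (2.46% to 8.11%), with 2 cells left out. The paper places *Prg4*-expressing progenitors distinct from FLS in the lining, so the contrast above holds for FLS alone.

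Across the classes, *Fgf7* fell in steps that partly overlapped. Mean levels were 79.0 ± 36.0 CPM (SD, n = 9) in the sublining as a whole, 52.5 ± 18.4 (n = 9) in F4 cells, 41.5 ± 21.5 (n = 8) in tenocyte-lineage cells, 37.1 ± 20.9 (n = 5) in osteoblast-lineage cells and 31.6 ± 16.5 (n = 6) in Lrrc15+ cells. Next came Prg4+ Creb5+ cells with 9.32 ± 5.86 CPM (n = 6), chondrocyte-lineage cells with 6.89 ± 6.80 (n = 6) and FLS with 1.77 ± 1.88 (n = 8). Mural cells are not placed in this order: their mean of 6.68 ± 11.6 CPM (n = 3) comes from 1 UMI in a library of 10 cells, and over all cells they held 2 UMIs (2.11 CPM) against 1.37 CPM in FLS. The ranges of neighbours in this order overlapped at every step, while the sublining stayed above FLS in every library. The classes draw on different mixes of steady-state and injured libraries. Within the Tom+ injured libraries the means were 51.0 ± 7.10 CPM in the sublining, 43.4 ± 16.3 in F4, 30.7 ± 11.3 in tenocyte-lineage and 24.9 ± 8.86 in Lrrc15+ cells (n = 4 each), and 37.3 ± 26.6 in osteoblast-lineage cells (n = 2). Immune cells held 0 *Fgf7* UMIs in 3 libraries, and the sublining pooled over those libraries was at least 14.2-fold higher against a floor of 3 UMIs over the class.

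The promoter windows of *Fgf7* and *Fgf18* are shown because both ligands were lower in FLS than in the sublining, while the windows differ in composition. Each is the 250 bases before the transcription start in RefSeq for build GRCm38.p6, at chr2:126034408-126034657 (+ strand) for *Fgf7* and chr11:33147401-33147650 (- strand) for *Fgf18*. Capitals mark GC boxes (GGGCGG or its complement CCGCCC).
Fgf7: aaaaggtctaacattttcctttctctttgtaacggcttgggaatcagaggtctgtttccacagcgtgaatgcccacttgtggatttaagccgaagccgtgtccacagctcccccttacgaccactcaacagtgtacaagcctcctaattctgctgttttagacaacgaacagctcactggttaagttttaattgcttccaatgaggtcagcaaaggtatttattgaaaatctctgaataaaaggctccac
Fgf18: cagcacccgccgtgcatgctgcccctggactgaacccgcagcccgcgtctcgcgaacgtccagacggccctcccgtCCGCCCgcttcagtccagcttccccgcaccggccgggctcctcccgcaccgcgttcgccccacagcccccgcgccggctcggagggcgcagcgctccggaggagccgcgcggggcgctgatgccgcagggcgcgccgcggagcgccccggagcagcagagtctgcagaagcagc
The *Fgf7* window was 43.6% G or C with 6 CpG dinucleotides and no GC box. The *Fgf18* window was 77.2% G or C with 37 CpG dinucleotides and 1 GC box. Over 32851 promoter windows of the same length the quartiles were 45.2% and 61.2% G or C and 2 and 16 CpG, with a GC box in 32.7%, so *Fgf7* sat below and *Fgf18* above the quartiles of base composition. Neither window held the AP-1 letters TGANTCA, which occurred on either strand in 6.75% of the windows. Such matches describe the letters only.

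*Fgf10*, the other mesenchymal ligand of the epithelial *Fgfr2* form, was sparse, and 184 of its 214 UMIs lay in sublining fibroblasts. It held 12.3 and 13.9 CPM in the Tom+ and 12.2 CPM in the Tom-GFP+ steady-state sublining, against 0.650, 3.32, 1.48 and 7.97 CPM in the Tom+ and 3.34 and 13.4 CPM in the Tom-GFP+ injured sublining. No *Fgf10* UMI was seen in the 669 FLS of 8 libraries, nor in the osteoblast-lineage, chondrocyte-lineage, mural or immune cells. With the same libraries pooled, sublining *Fgf10* at 6.04 CPM was at least 23.5-fold above FLS at a floor of 3 UMIs over the class (0.257 CPM). The same bound was 3.11-fold against osteoblast-lineage and 2.03-fold against chondrocyte-lineage cells, where few cells set the limit. These are not bounds within a library, since the classes are spread unequally over the pooled libraries. Only 21 and 30 of the 669 FLS came from the Tom+ steady-state libraries, where the sublining held 12.3 and 13.9 CPM. Because *Fgf10* did not pass the filter on low counts, the comparison of lining and sublining could not test it.

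Both ligands varied between the sublining gates. *Fgf7* was at 34.6 ± 19.1 CPM in F1 (n = 9), 108 ± 64.7 in F2 (n = 9), 96.1 ± 63.4 in F3 (n = 8), 266 ± 44.2 in F5 (n = 2) and 116 ± 78.6 in F6 (n = 2). *Fgf10* was at 0.901 ± 1.60 CPM in F1 (n = 9), 9.17 ± 7.90 in F2 (n = 9), 15.4 ± 18.0 in F3 (n = 8), 4.31 ± 0.174 in F5 (n = 2) and 7.06 ± 2.64 in F6 (n = 2). F5 cells, present in number only in the Tom-GFP+ lineage, carried the most *Fgf7*, with 297 CPM at steady state and 234 CPM after injury, and 43.3% of 67 thinned F5 cells held a UMI (31.2% to 56.0%). F3 cells, by contrast, held 29.7, 49.6 and 27.1 CPM of *Fgf10* at steady state, each above the other gates of its library, from 4, 4 and 11 UMIs. After injury F3 held 0, 2.92, 0 and 6.69 CPM (Tom+) and 7.39 CPM (Tom-GFP+), and over all cells F3 (10.8 CPM) and F2 (9.39 CPM) were close, with overlapping intervals of the thinned shares (2.55% to 8.85% and 2.15% to 4.49%). F1 was the low gate for both. The means of F5 and F6 rest on Tom-GFP+ libraries only and those of F1 to F3 on both lineages, so these means are not like for like. These gates hold few cells per library and were not tested against each other.

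**Figure D1:**
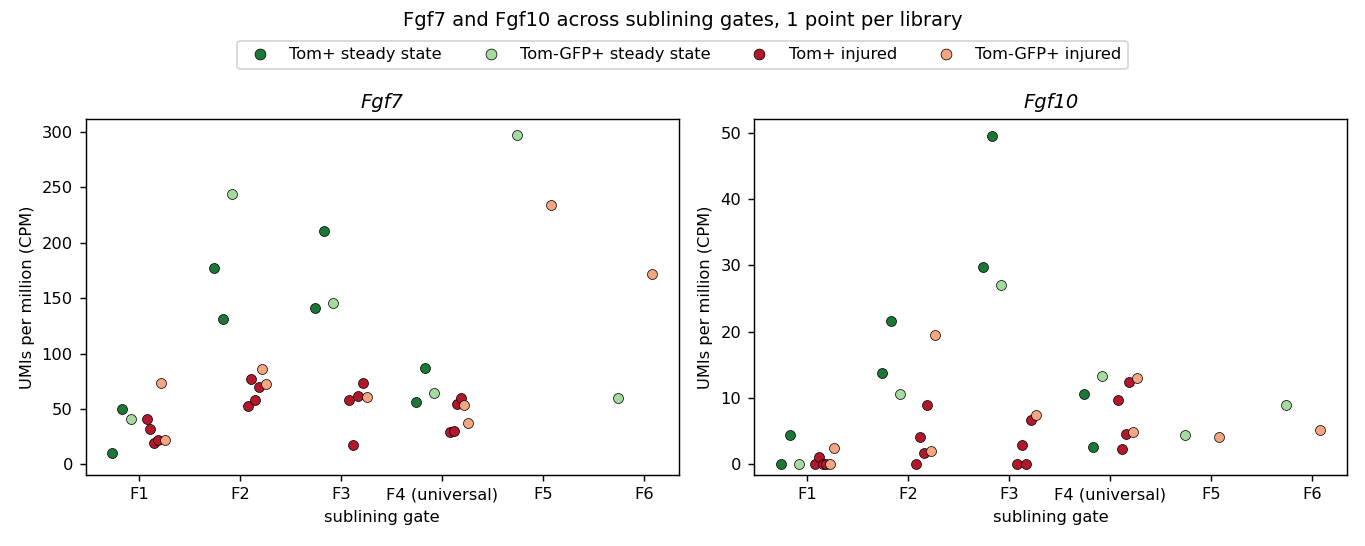
Levels of *Fgf7* (left) and *Fgf10* (right) in CPM for each sublining gate, with 1 point per library coloured by lineage and state; gates with under 10 cells in a library have no point. The F5 points of *Fgf7* lie at 297 and 234 CPM, and the steady-state F3 points of *Fgf10* lie at 27.1 to 49.6 CPM.

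*Fgf2*, a ligand that lacks a classical signal peptide, was higher in F4 universal fibroblasts than in the rest of the sublining. Its F4 level was 37.2 and 12.98 CPM in the Tom+ and 36.3 CPM in the Tom-GFP+ steady-state libraries. After injury F4 cells held 3.22, 11.5, 9.13 and 3.53 CPM (Tom+) and 16.6 and 16.8 CPM (Tom-GFP+). The rest of the sublining held between 2.56 and 12.97 CPM, below F4 of the same library in 8 of 9 libraries; Tom+ injured library 4 had 5.45 against 3.53 CPM. The log2 fold change of F4 against other sublining fibroblasts was 1.38 (SE 0.24, n = 9, adjusted p = 0.00049, edgeR). *Fgf7* went the other way, with -0.72 (SE 0.15, adjusted p = 0.0021), and *Fgfr1* was higher in F4, with 0.50 (SE 0.08, adjusted p = 0.00019). In total 3 of the 5 members tested passed, 2 higher and 1 lower in F4, where 15.0% of 8192 genes passed. *Fgf18* (0.56, SE 0.22, adjusted p = 0.099) did not pass, and *Fgf10* (-0.01, 95% interval -0.83 to 0.81) was tested without a call. Here and below, 95% intervals of log2 fold changes are normal approximations from the SE. With few libraries they are narrower than those of the test itself.

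*Fgf2* overlaps *Nudt6* on the opposite strand at the 3' ends of both genes, while reads were taken from transcript 5' ends. *Nudt6* had 399 UMIs in the kept cells. The antisense gene *Fgf2os*, which spans the annotated start of *Fgf2*, had 7 UMIs. Whether the counting used strand is not given in the sources used here, so reads of *Fgf2* and these genes may not be fully apart. FLS held 7 *Fgf2* UMIs in all, or 0.789 ± 1.32 CPM (n = 8), against 8.75 ± 6.5 CPM in the sublining (n = 9). Tenocyte-lineage cells were close to the sublining with 8.60 ± 4.82 CPM (n = 8), a log2 difference of 0.51 (95% interval -0.24 to 1.25) that did not pass the test.

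*Fgf18*, the ligand best known from cartilage, was sparse in chondrocyte-lineage cells and lower there than in the sublining. In the 6 libraries with enough of them, 98 chondrocyte-lineage cells held 2 *Fgf18* UMIs. These libraries stood at 0 CPM in 5 of 6 and at 7.39 CPM in Tom+ injured library 4. All 114 cells of the class held 4 UMIs (3.27 CPM), against 4.52 CPM over all FLS and 13.7 CPM over all sublining cells. The sublining held 8.87, 11.1 and 14.0 CPM at steady state and 9.32 to 23.5 CPM after injury, above chondrocytes in each shared library. FLS were lower as well, with 0 to 6.78 CPM and a log2 fold change of -1.82 (SE 0.34, n = 8, adjusted p = 0.0006, edgeR). In the 5 libraries with enough of them, osteoblast-lineage cells also held 2 UMIs, all in 1 library (3 UMIs over all 186 cells). Against the sublining, the log2 fold changes were -2.92 (SE 0.72, adjusted p = 0.011, edgeR) in chondrocyte-lineage and -2.82 (SE 0.75, adjusted p = 0.029) in osteoblast-lineage cells. Tom+ injured library 4 held both chondrocyte UMIs that entered the test. Without this library the tested chondrocyte cells had none, and the estimate, then no measure of size, kept an adjusted p of 0.030. Leaving out any 1 of the 5 osteoblast libraries lost the osteoblast call (adjusted p from 0.0562 to 0.0967).

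**Figure D2:**
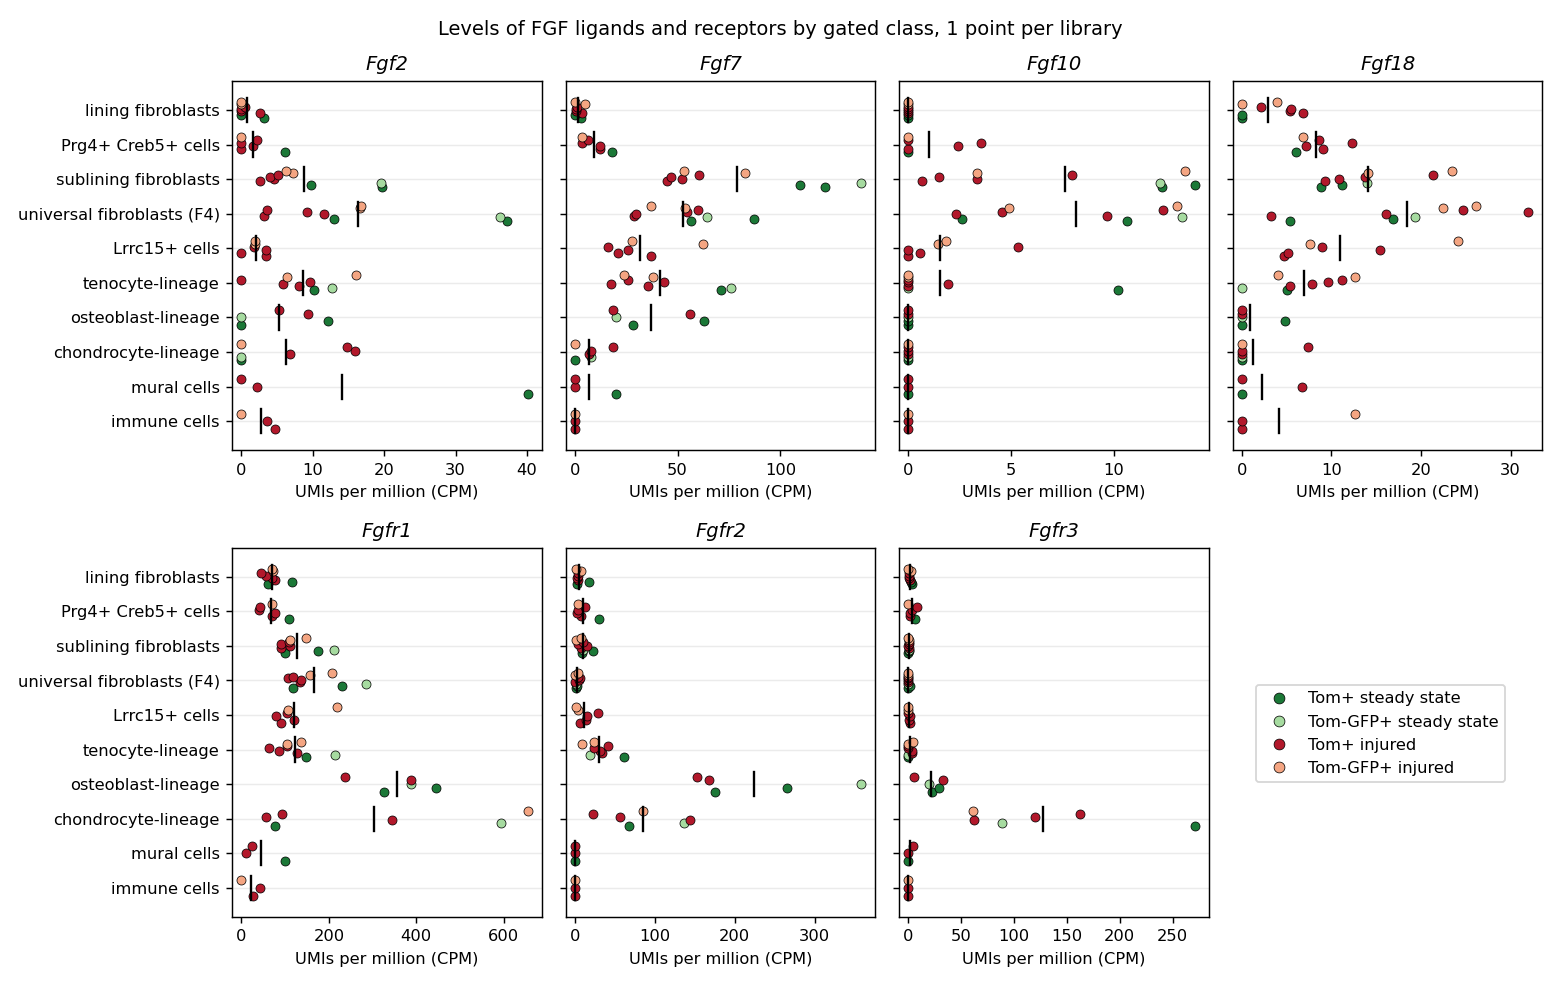
Levels of the 7 genes in CPM (x axis, linear, a scale of its own for each gene) in 10 gated classes, with 1 point per library coloured by lineage and state and a black bar at the mean. *Fgf7* and *Fgf10* points lie at or near 0 in lining fibroblasts, and *Fgfr3* rises above 60 CPM only in chondrocyte-lineage cells.

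Of the receptors, *Fgfr1* had UMIs in every class, in mural cells near the immune background, and was on average highest in osteoblast-lineage cells. The 5 osteoblast-lineage libraries held 327 and 444 CPM (Tom+ steady state), 388 CPM (Tom-GFP+ steady state) and 388 and 238 CPM (Tom+ injured), all above the sublining of their own libraries at 90.6 to 212 CPM. The log2 fold change was 1.36 (SE 0.20, n = 5, adjusted p = 0.00059, edgeR). FLS held 45.9 to 116 CPM, a log2 fold change of -0.85 (SE 0.11, n = 8, adjusted p = 2.0e-05) against the sublining. Prg4+ Creb5+ cells, set against FLS, were at 68.7 ± 25.2 CPM (n = 6), a log2 difference of -0.06 (edgeR, unadjusted p = 0.78, approximate 95% interval -0.29 to 0.18). In that comparison 0 of the 1 member tested passed, by edgeR or DESeq2 and also at an unadjusted p under 0.05, where 17.5% of 6487 genes passed. Mural cells were low at 45.6 ± 47.9 CPM (n = 3, log2 fold change -2.34, SE 0.40, adjusted p = 0.00017, edgeR). Immune cells held 22.7 ± 21.4 CPM (n = 3), with a UMI in 6.67% of thinned cells against 31.7% in the sublining. Over all cells, mural cells held 27.4 CPM and immune cells 24.7 CPM. A UMI was held by 9.09% of thinned mural cells (4.01% to 17.1%), which overlaps the immune interval (2.49% to 13.9%).

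Chondrocyte-lineage *Fgfr1* varied widely between its 6 libraries. It stood at 76.7 CPM in Tom+ steady-state library 2, at 594 CPM in the Tom-GFP+ steady-state library, at 344, 55.9 and 92.3 CPM in Tom+ injured libraries 1, 3 and 4 and at 655 CPM in Tom-GFP+ injured library 1. Both Tom-GFP+ values were above all Tom+ values. In the same order of libraries the 8 chondrocyte markers summed to 43980, 14780, 20780, 42700, 46700 and 19680 CPM, with *Cnmd* at 0 in Tom+ injured library 1 and no other marker at 0. The lining markers, *Prg4* among them, summed in that order to 5912, 152.6, 4145, 20830, 7779 and 61.61 CPM, lowest in the Tom-GFP+ libraries. The osteoblast markers summed in that order to 2026, 4184, 7039, 3601, 11540 and 11090 CPM. At steady state the paper reports a superficial zone phenotype for Tom+ chondrocyte-lineage cells. For the Tom- cells it reports a mature or hypertrophic one, with growth plate as the likely source. The class used here pools both lineages. The part of these lists and of such subtypes in the spread was not tested. The class rests on 11 to 22 cells a library, and the test against the sublining gave 0.77 (SE 0.44, adjusted p = 0.26, edgeR).

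*Fgfr2* marked the osteoblast lineage. Its level there was 175 and 266 CPM (Tom+ steady state), 358 CPM (Tom-GFP+ steady state) and 168 and 153 CPM (Tom+ injured), against 1.54 to 22.6 CPM in the sublining of the 9 libraries, with no overlap. The log2 fold change was 4.01 (SE 0.26, n = 5, adjusted p = 1.3e-06, edgeR), or 16.2-fold higher. After thinning, 48.9% of 178 osteoblast-lineage cells held an *Fgfr2* UMI (41.3% to 56.5%), against 2.79% of sublining cells (2.15% to 3.54%) and 0 of 90 immune cells (up to 4.02%). In all, 4 of the 5 members tested passed in the osteoblast comparison, *Fgfr1* and *Fgfr2* higher and *Fgf7* (-1.21, SE 0.33, adjusted p = 0.036) and *Fgf18* lower, where 10.7% of 8570 genes passed. The *Fgf7* call was lost on leaving out any of 4 libraries (both steady-state Tom+, the Tom-GFP+ and Tom+ injured 2; adjusted p from 0.0886 to 0.139).

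Chondrocyte-lineage cells came next for *Fgfr2* with 22.2 to 144 CPM (log2 fold change 3.25, SE 0.49, n = 6, adjusted p = 0.00035, edgeR). Their sums also held osteoblast markers, at 2026 to 11540 CPM against 10330 to 22470 CPM in the osteoblast-lineage class. Of chondrocyte-gated cells 7.89% fell in the osteoblast-lineage cluster, and the part of this in *Fgfr2* was not tested. Tenocyte-lineage cells followed with 9.49 to 61.1 CPM (1.73, SE 0.24, n = 8, adjusted p = 8.7e-05, edgeR). Tenocytes also held less *Fgf7* than the sublining (-0.79, SE 0.16, adjusted p = 0.0041). The *Fgfr2* difference depends on the gate: it was 1.956 (adjusted p = 3.3e-05) without cells near a gate, but with clusters in place of gates *Fgfr2* did not pass the count filter and had no test. These were 2 of the 5 members tested in tenocyte-lineage cells, where 8.62% of 8931 genes passed. FLS were below the sublining, at 1.3 to 17.5 CPM (-1.24, SE 0.34, n = 8, adjusted p = 0.0097); without Tom+ injured library 2 the adjusted p was 0.0647. F4 universal fibroblasts held 2.70 ± 2.24 CPM (n = 9) and did not pass the count filter for *Fgfr2*. Mural cells had 0 UMIs in 3 libraries, and the sublining pooled over these libraries was at least 3.39-fold higher than their floor. The annotated span of *Fgfr2* runs over many other genes of both strands, so its reads could in part be shared.

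*Fgfr3* was the most restricted receptor. In chondrocyte-lineage cells it stood at 271 CPM (Tom+ steady-state 2), 88.3 CPM (Tom-GFP+ steady state), 61.9, 119.8 and 163 CPM (Tom+ injured 1, 3 and 4) and 61.6 CPM (Tom-GFP+ injured 1). The sublining held 9 *Fgfr3* UMIs in 2381 cells, no more than 0.696 CPM in any library. The log2 fold change was 7.84 (SE 0.34, n = 6, adjusted p = 4.1e-09, edgeR). Of thinned chondrocyte-lineage cells 26.4% held a UMI (18.4% to 35.6%), against 0.0435% of sublining cells (0.00110% to 0.242%) and 0 of 90 immune cells. Osteoblast-lineage cells were second with 21.9 ± 10.6 CPM (n = 5), below every chondrocyte value, and FLS held 1.45 ± 1.09 CPM (n = 8). Across the chondrocyte comparison 4 of the 6 members tested passed (*Fgfr3* and *Fgfr2* higher, *Fgf7* at -3.33, SE 0.49, adjusted p = 0.00029, and *Fgf18* lower), where 19.9% of 8951 genes passed and the median over all genes was -0.13.

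Lrrc15+ cells, which were found only in injured knees, held *Fgf7* at 36.8, 21.2, 25.7 and 16.0 CPM (Tom+) and 62.2 and 27.8 CPM (Tom-GFP+), below the injured sublining of the same library in each of 6 libraries (-0.75, SE 0.17, adjusted p = 0.010, edgeR). This was 1 of the 4 members tested, where 11.5% of 9891 genes passed, and *Fgf18* (-0.70, SE 0.21, adjusted p = 0.052) did not pass. Mural cells held *Fgf7* in 1 of 3 libraries (1 UMI, 20.1 CPM), and 3 of the 4 members tested were lower than in the sublining, where 11.2% of 9476 genes passed; the *Fgfr2* call was lost without Tom+ injured library 1 or 2 (adjusted p = 0.109 and 0.148).

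**Figure D3:**
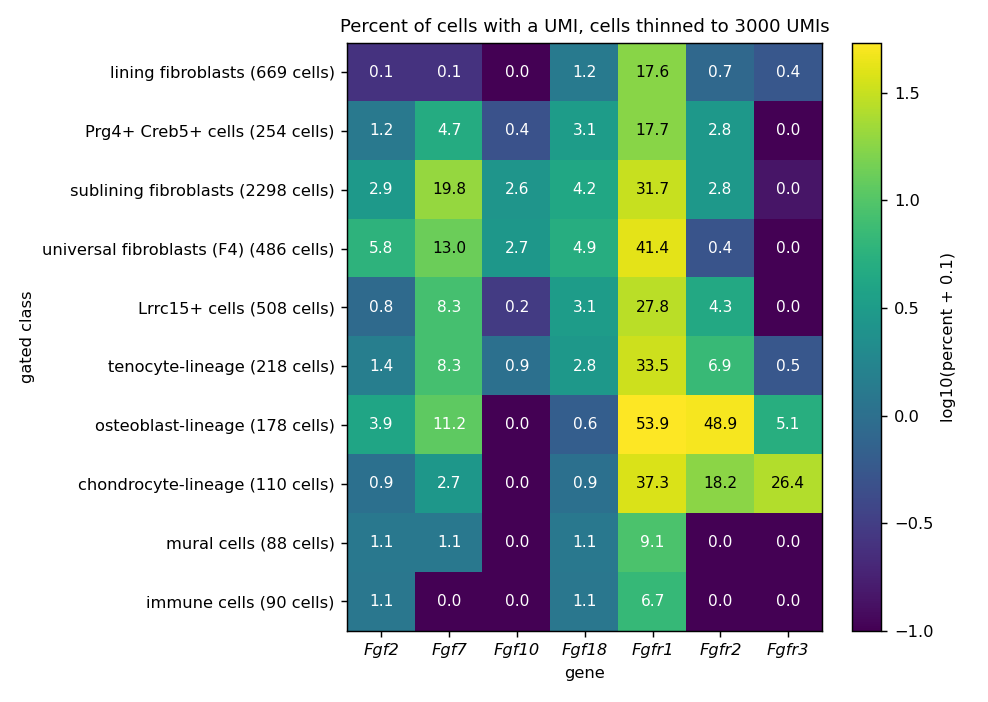
Percent of cells with at least 1 UMI of each gene (columns) in each class (rows) after every cell was thinned to 3000 UMIs; the colour is log10(percent + 0.1) and the number of cells is in the row label. Immune cells, the bottom row, give the background: 6.67% for *Fgfr1*, 1.11% for *Fgf2* and *Fgf18*, and 0 for the other genes.

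Injury was compared within lineage and class. In the Tom+ sublining the ligands *Fgf7* and *Fgf2* were called lower 6 days after injury, and none of the 6 members tested was called higher. *Fgf7* went from 116 ± 8.63 CPM (SD, n = 2) to 51.0 ± 7.10 CPM (n = 4), with no overlap between the library values given above. Its log2 fold change was -1.19 (SE 0.21, adjusted p = 0.0099, edgeR without block). *Fgf2* went from 19.7 and 9.74 CPM to 2.60, 4.53, 4.08 and 5.10 CPM, a log2 fold change of -1.86 (SE 0.36, adjusted p = 0.014). Thus 2 of the 6 members tested passed in edgeR and in DESeq2, where 12.0% of 12432 genes passed in edgeR.

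The other 4 tested members did not pass in the Tom+ sublining. *Fgf10* had the largest estimate, -2.01 (SE 0.74, adjusted p = 0.11), with every injured value (0.650 to 7.97 CPM) below both steady-state values (12.3 and 13.9 CPM). Its adjusted p was 0.0325 without Tom+ injured library 4, the highest of the 4. *Fgf18* was at 8.87 and 11.1 CPM before and 9.32, 10.9, 13.7 and 21.4 CPM after injury (0.43, 95% interval -0.32 to 1.19). *Fgfr1* (-0.46, -0.92 to 0.00) and *Fgfr2* (-0.80, -1.95 to 0.36) overlapped between states.

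Several properties of the sublining differed between the states beside these genes. Cells with cycling markers made up 0% of the sublining in all 3 steady-state libraries and 1.79% to 21.8% in the injured ones, the median depth was 8024 to 8711 against 9966 to 18137.5 UMIs, and Tom+ F4 cells went from 27.0% and 27.5% to 7.14% to 17.5% of the sublining. F1, the gate low in *Fgf7*, made up 7.50% and 11.3% of the Tom+ sublining at steady state and 12.5% to 51.7% after injury. Leaving out cells with cycling markers gave -1.15 for *Fgf7* (adjusted p = 0.0083) and -1.69 for *Fgf2* (adjusted p = 0.015). Within the F2 gate alone *Fgf7* fell from 177 and 132 CPM to 53.0, 76.9, 58.3 and 69.6 CPM (-1.29, adjusted p = 0.0039), whereas *Fgf2* in F2 (-0.97, adjusted p = 0.14) and *Fgf7* in F1 (-0.27, adjusted p = 0.83) did not pass. Marker sums of the same Tom+ sublining cells differed too. The sublining's own markers *Thy1* and *Cd34* summed to 1548 and 1599 CPM at steady state and 738.7 to 895.1 CPM after injury, Lrrc15+ cell markers to 37.96 and 38.96 against 290.3 to 463.5 CPM, and mural markers to 44.86 and 48.0 against 103.9 to 451.6 CPM. Lining markers overlapped (461 and 856.8 against 707 to 2201 CPM), and immune markers went from 1.48 and 2.09 to 1.81 to 7.04 CPM. The part of these shifts in the *Fgf7* and *Fgf2* results was not tested.

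The call for *Fgf7* rests on both Tom+ steady-state libraries, since its adjusted p was 0.0843 without the first and 0.0503 without the second, with estimates of -1.11 and -1.31. That for *Fgf2* was lost without the first (-1.28, adjusted p = 0.155). The steady-state libraries and Tom+ injured library 1 came with an older gene list format than the other injured libraries; with the format as a block the Tom+ contrast rests on that 1 injured library, the one with the most F1 and cycling cells and the lowest *Fgf10*. It gave -1.39 for *Fgf7* (adjusted p = 0.018), -2.47 for *Fgf2* (adjusted p = 0.014) and -4.27 for *Fgf10* (adjusted p = 0.033), so format and state cannot be told apart beyond 1 library.

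**Figure D4:**
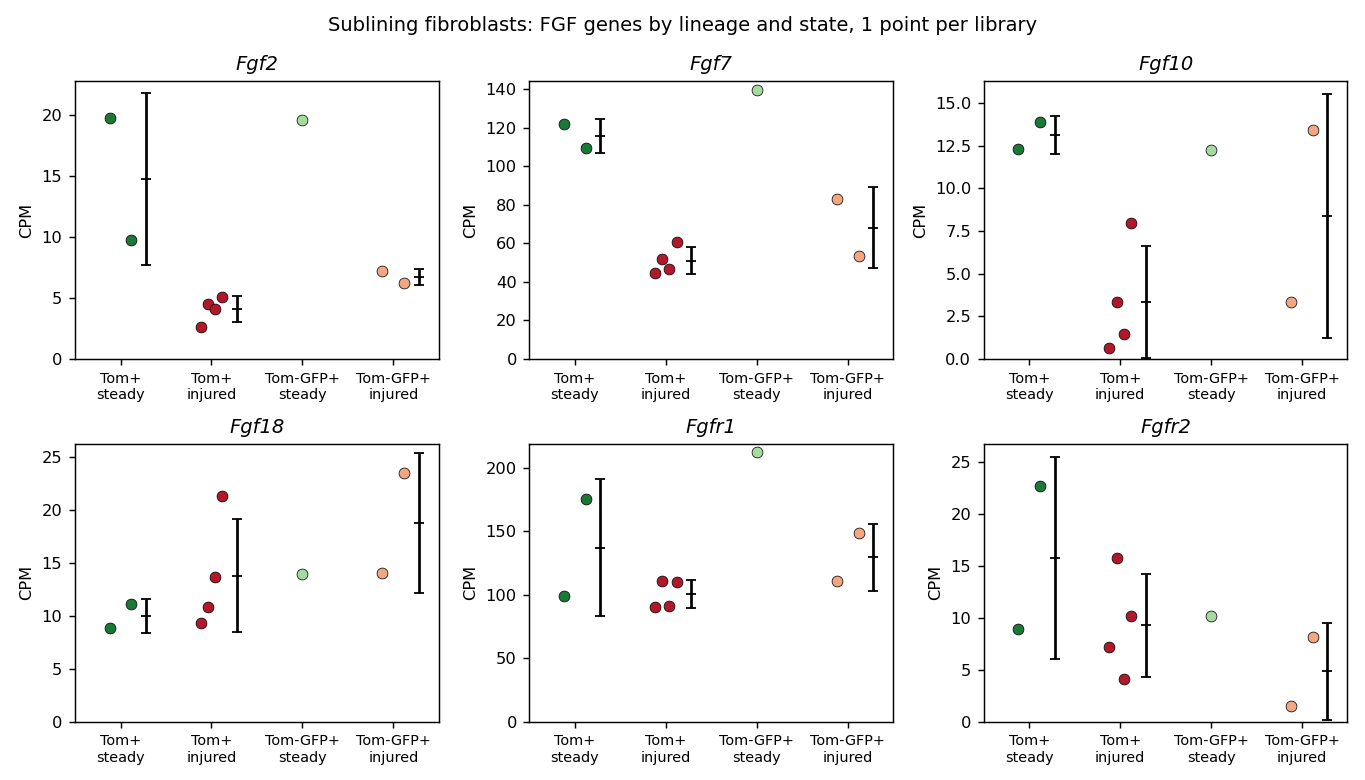
Levels in sublining fibroblasts in CPM for the 6 genes tested there, by lineage and state, with 1 point per library and, for groups of at least 2 libraries, a bar at the mean ± SD. *Fgf7* lies at 109.6 to 139 CPM in the 3 steady-state libraries and at 44.6 to 82.9 CPM in the 6 injured ones.

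In the Tom-GFP+ sublining *Fgf7* was at 139 CPM in the 1 steady-state library and 82.9 and 53.2 CPM after injury (-1.003, SE 0.297, adjusted p = 0.11). *Fgf2* was at 19.6 against 7.18 and 6.23 CPM (-1.50, SE 0.47, adjusted p = 0.13), and *Fgfr1* at 212 against 111 and 148 CPM (-0.70, SE 0.33, adjusted p = 0.29). None of the 6 members tested passed in edgeR (2 at an unadjusted p under 0.05) or DESeq2, where 1.43% of 12432 genes passed; the spread of the single library was taken from the other groups. In the F2 gate alone, a setting chosen after seeing the data and still with 1 steady-state library, *Fgf7* was at 244 against 86.4 and 72.9 CPM (-1.63). Tom+ injured library 1 is in neither group of this contrast but enters the count filter, the normalization and the estimate of spread. Without it the whole sublining gave -1.04 for *Fgf7*. F5 cells, the gate highest in *Fgf7*, made up 8.36% of the Tom-GFP+ sublining at steady state. They made up 12.05% and 0% of it in Tom-GFP+ injured libraries 1 and 2. The part of this in the injury estimates was not tested. The difference between the lineages in their response was itself tested, and none of 6 members passed in edgeR or DESeq2, also unadjusted (0% of 12432 genes passed): for *Fgf7* the interaction was -0.19 on the log2 scale with a 95% interval of -0.93 to 0.55.

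F4 cells and FLS of the Tom+ lineage gave no call after injury. In F4, *Fgf2* (-1.82, SE 0.56, adjusted p = 0.088, edgeR) and *Fgf7* (-0.74, SE 0.34, adjusted p = 0.25) had lower estimates, and 0 of the 4 members tested passed in edgeR or DESeq2, with 1 at an unadjusted p under 0.05, where 5.30% of 8138 genes passed. In FLS *Fgfr1* alone could be tested (-0.49, SE 0.28, adjusted p = 0.37): 60.4 and 116 CPM at steady state against 77.2, 69.9, 56.2 and 45.9 CPM after injury. So 0 of 1 passed in edgeR or DESeq2, also unadjusted, where 3.07% of 9369 genes passed. These comparisons share libraries with each other and are not independent.

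No member was called between the lineages, and the intervals were wide. The lineages also mixed the sublining gates differently. In Tom-GFP+ steady state, injured 1 and injured 2, F5 made up 8.36%, 12.05% and 0%, and F6 17.55%, 7.49% and 3.165%. In Tom+ libraries F5 and F6 made up at most 0.417% and 1.67%. F1 made up 12.5% to 51.7% in injured Tom+ and 12.05% and 15.19% in injured Tom-GFP+ libraries. The part of this mix in the lineage estimates was not tested. In the injured sublining 0 of 6 members differed between Tom+ and Tom-GFP+ cells in edgeR or DESeq2, also unadjusted, where 0.0161% of 12432 genes passed. The *Fgf7* difference, Tom+ against Tom-GFP+, was -0.41 (95% interval -0.83 to 0.02) and that of *Fgfr2* 1.13 (-0.27 to 2.52). At steady state 0 of 6 members passed in either tool, also unadjusted, where 0.0322% of genes passed, with *Fgf7* at -0.22 (-0.81 to 0.37) and *Fgfr1* at -0.58 (-1.23 to 0.07).

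**Figure D5:**
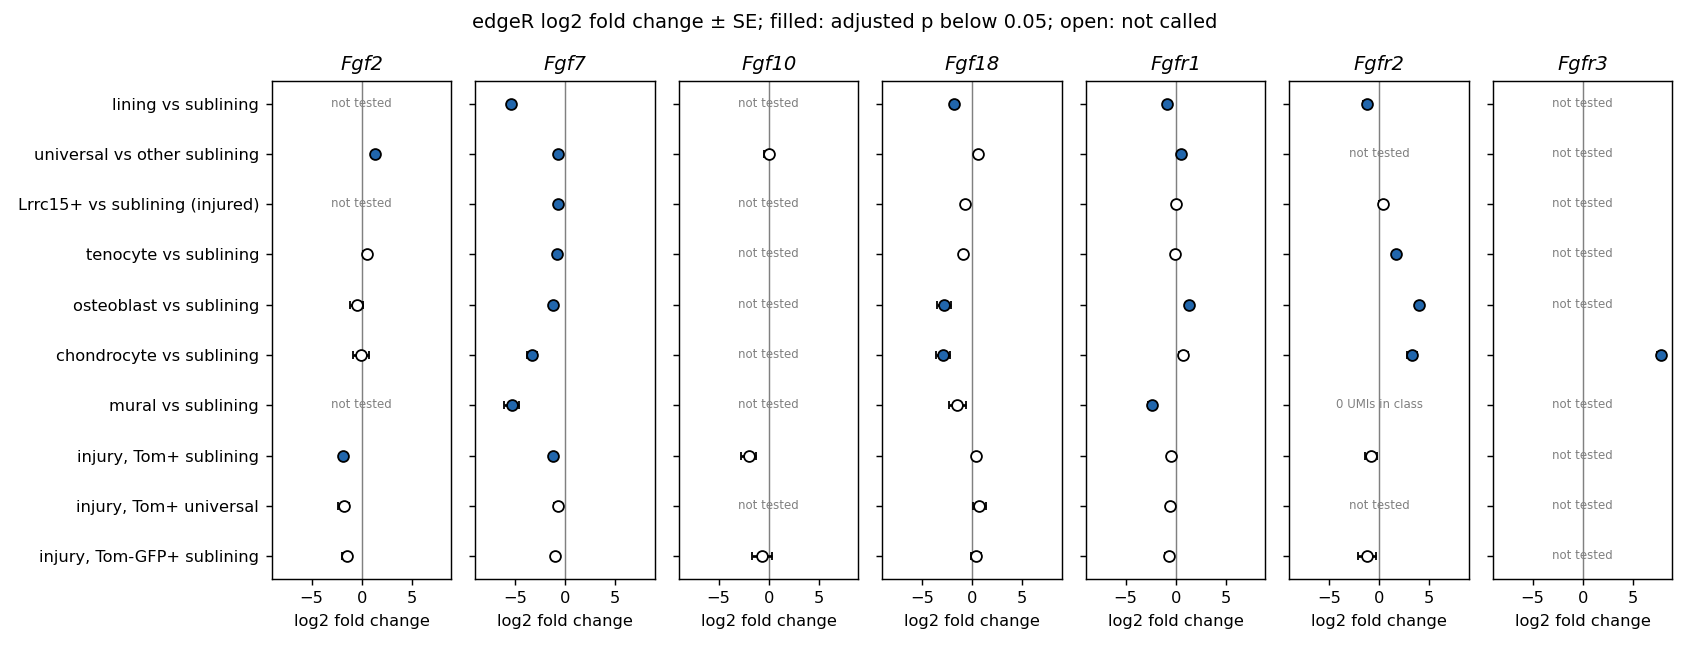
edgeR log2 fold changes with their SE for each gene (panels) in 10 comparisons (rows); filled points had an adjusted p below 0.05 over all genes tested. Genes that did not pass the count filter are marked as not tested, and *Fgfr2* in mural cells has no point because that class held 0 UMIs.

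The wider FGF pathway was read from 3 lists of genes: 18 other ligands, 12 receptor partners and 12 feedback regulators and targets. After injury in the Tom+ sublining, 1 of the 3 other ligands tested was lower, *Fgf9*, with 28 UMIs in the 2 steady-state and 1 UMI in the 4 injured libraries (adjusted p = 0.0060, edgeR). Likewise 1 of the 5 receptor partners tested was lower, *Flrt2*, a membrane protein that binds FGF receptors, from 72.4 ± 6.85 CPM (n = 2) to 30.2 ± 4.88 CPM (n = 4; -1.27, SE 0.20, adjusted p = 0.0063). None of the 10 feedback regulators and targets passed, in a comparison where 12.0% of 12432 genes did. The medians over the tested genes of the lists were -0.23, -0.51 and -0.40 on the log2 scale, and that of all genes was 0.01. In the Tom-GFP+ sublining no gene of the 3 lists passed, where 1.43% of 12432 genes did. The list medians there were -2.17, -0.21 and -0.98 against 0.01.

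Between FLS and the sublining the feedback genes did not move one way. FLS were lower than the sublining in *Spry1*, a Sprouty inhibitor of receptor signalling, at 0.933 ± 1.18 CPM (n = 8) against 20.4 ± 14.9 (n = 9; -3.60, SE 0.32, adjusted p = 5.0e-07), and in the transcription factor *Etv1* (-2.86, SE 0.43, adjusted p = 0.00010). The related factor *Etv5* was higher in FLS, at 13.2 ± 7.0 against 5.45 ± 1.72 CPM (1.12, SE 0.23, adjusted p = 0.0015). *Flrt2* (-4.43, SE 0.23, adjusted p = 2.4e-09) and the ligand *Fgf16* (-2.07, SE 0.30, adjusted p = 6.9e-05) were lower. In all, 3 of 7 feedback genes (1 higher), 1 of 4 partners and 1 of 1 other ligand passed, where 38.8% of 9901 genes passed. The list medians were -0.25, -0.40 and -2.07 against 0.00 for all genes.

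Calls in the other classes were counted by list. In F4 cells 2 of 6 feedback genes, 2 of 3 partners and 0 of 1 other ligand passed. In mural cells 2 of 8 feedback genes and 1 of 3 partners passed, and of 2 other ligands 1 was higher and 1 lower. Lrrc15+ cells had 1 of 7, 1 of 4 and 1 of 1 in that order. In chondrocyte-lineage cells 1 of 7 feedback genes passed, and of 4 partners 1 was higher and 1 lower. Osteoblast-lineage cells had 0 of 5, 0 of 2 and 1 of 1. Over all genes tested, the share that passed was 15.0% in F4, 19.9% in chondrocyte-lineage, 11.2% in mural and 11.5% in Lrrc15+ cells. It was 10.7% in osteoblast-lineage and 8.62% in tenocyte-lineage cells. F4 cells were lower than the other sublining in *Spry1* (-1.83, SE 0.22) and *Dusp6* (-1.07, SE 0.31), a phosphatase acting on ERK, and higher in *Flrt2* (0.66, SE 0.13) and *Il17rd* (0.70, SE 0.22), which dampens FGF signalling (adjusted p from 9.3e-06 to 0.040). Chondrocyte-lineage cells were higher in *Fgfrl1*, a receptor without kinase domain, at 82.3 ± 44.6 CPM (n = 6) against 4.91 ± 1.15 CPM in the sublining (4.09, SE 0.33, adjusted p = 1.3e-06), and in *Etv5* (3.40, SE 0.44, adjusted p = 9.5e-05), and lower in *Flrt2* (-1.89, SE 0.54, adjusted p = 0.025). Mural cells, in 3 libraries, were higher in *Spry4* at 52.4 ± 11.7 CPM (4.17, SE 0.49, adjusted p = 1.1e-06), in *Spry1* at 87.5 ± 61.2 CPM (2.78, SE 0.40, adjusted p = 2.0e-05) and in the ligand *Fgf1* at 39.2 ± 52.9 CPM (11 UMIs; 5.38, SE 1.06, adjusted p = 0.00078), and held no UMI of *Flrt2* or *Fgf16*, both of which were called lower. Lrrc15+ cells were lower in *Fgf16* (-2.17, SE 0.52, adjusted p = 0.015), *Etv1* (-1.19, SE 0.29, adjusted p = 0.018) and *Flrt2* (-0.53, SE 0.15, adjusted p = 0.034), and *Fgf16* was called lower in osteoblast-lineage cells, where it had 0 UMIs in 5 libraries (adjusted p = 0.0060). Tenocyte-lineage cells had no call in the 3 lists.

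Patterns across classes were compared over 41 sums of a class in a library (10 classes, at least 20 cells each) as Pearson correlations of log2(CPM + 1), among 5491 genes; the sums share libraries, depth and class markers, so the values describe these libraries. *Fgf7* was most like *Flrt2* (r = 0.92), *Serpinf1* (0.91) and the matrix gene *Ogn* (0.88). *Fgfr3* was most like *Mia* (0.86), *Susd5* (0.82) and *Panx3* (0.81), and *Fgfr2* like *Ibsp* (0.80, a marker of the osteoblast gate), *Omd* (0.80) and *Adk* (0.80). Chondrocyte-lineage cells, the class highest in *Fgfr3*, entered only from Tom+ injured libraries 3 and 4 (20 and 22 cells). All correlations of *Fgfr3* given here lean on these few sums. *Fgf10* was nearest to *Cyp2f2* (0.81), *Ntrk2* (0.79) and the complement gene *C3* (0.77), and *Fgf2* to *Clu* (0.71), *Lrp6* (0.67) and *Zfp36l2* (0.66). The genes nearest to *Fgf18* were those of ribosomal proteins, *Rps20* (0.80), *Rpl22* (0.77) and *Rps18* (0.77), and those nearest to *Fgfr1* were *Flrt2* (0.77), *Ptprd* (0.77) and *Bet1l* (0.76). Among the members themselves, *Fgfr1* and *Fgfr2* (0.72) and *Fgf7* and *Fgfr1* (0.71) were the closest pairs, and *Fgf10* and *Fgfr3* (-0.43) the most opposed.

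Ligand and receptor were also read in the same cells. Of 2298 thinned sublining cells, 456 held *Fgf7* and 729 held *Fgfr1*, and 171 held both, where 145 would if the genes were unrelated. *Fgfr2*, on whose epithelial form *Fgf7* and *Fgf10* mainly act, was seen in 64 of these cells. It was together with *Fgf7* in 11 cells against 12.7 and with *Fgf10* in 4 against 1.64. *Fgf7* and *Fgf10* were together in 18 cells against 11.7, and *Fgf2* and *Fgf10* in 6 against 1.72. In 178 osteoblast-lineage cells, 49 held both *Fgfr1* and *Fgfr2* (46.9 if unrelated), and in 110 chondrocyte-lineage cells 10 held *Fgfr1* with *Fgfr3* (10.8). The figures for unrelated genes pool the cells of all libraries, states and gates. Genes that differ alike between libraries, states or gates would exceed them without any link within a library, and this part was not tested. At 3000 UMIs a cell most transcripts of a sparse gene are missed, and cells of a library are not replicates, so these counts are given without a test.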

How the data were processed

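Live Tom+ and Tom-GFP+ cells of mouse knees were profiled with the 10x Genomics Single Cell 5' kit (version 2) in 9 libraries. The authors deposited raw counts, UMIs per gene and called cell barcode, made with Cell Ranger (3.0.2 in the headers of 5 libraries, version not given for the others) on GRCm38.p6 per the labels; counts were not normalized. Barcodes below 500 detected genes or 1000 UMIs, or whose mitochondrial share exceeded 10%, were removed. Each marker was scaled to its 0.99 quantile over cells and capped, and a cell took the class of its highest mean score among those with enough markers detected; the gate rule was settled after markers and clusters, but not the FGF genes, had been examined. Doublets were left in, and the highest 5% of Scrublet scores were left out as an alternative. UMIs were summed per library and class (at least 10 cells) and tested with edgeR 4.0.16 (TMM, filterByExpr, quasi-likelihood, Benjamini-Hochberg over all genes tested, R 4.3.3), with library as a block between classes and 4 groups without block between states and lineages. DESeq2 1.42.0 and clusters of Seurat 5.3.0 (2000 genes, 30 dimensions, resolution 1) were alternatives, as were stricter cells, other size factors, no count filter, cells near a gate or cycling left out, and each library left out. The SE of an edgeR estimate was derived from the estimate and its F statistic. The 95% intervals of log2 fold changes were normal approximations from that SE, which leave out the few degrees of freedom of the test. The fits were tested on simulated data. Named were the 7 genes, the called genes of 3 FGF lists and, for each member, the 3 most alike genes with at least 20 CPM. Members and lists were chosen with earlier results of these data known. No column was left unmapped (0).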

Additional observations from a re-analysis of the deposited data

Results flagged for a closer look

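*Fgf18* in the sublining without F4 cells stood at 20.6 CPM in Tom+ injured library 4, apart from the other 3 Tom+ injured libraries (9.76 to 10.2 CPM); this was the only library set apart in 40 groups examined, where chance alone sets apart about 1 in 20.

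Cells with adipocyte genes (32 cells, 30 of them in Tom+ injured library 4) entered no comparison and held 11 UMIs of *Fgf2*, 9 of *Fgf7*, 11 of *Fgf10*, 19 of *Fgfr1* and 14 of *Fgfr2*, each above the limit of 3 that a count of 0 allows. In the 1 library with enough of them, *Fgf10* stood at 31.5 CPM against 7.97 CPM in the sublining of that library, *Fgf2* at 31.5 against 5.10 CPM and *Fgfr2* at 37.2 against 10.2 CPM, with no replicate. Endothelial cells (22) held 10 UMIs of *Fgfr1* and 5 of *Fgfr3*, and immune cells held 24 UMIs of *Fgfr1*.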

How the results depend on the processing

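The 23 calls of members over all comparisons kept their direction in the 342 alternatives that gave a value, and 323 kept their call; of the 19 that lost it, 15 left out 1 library. The other 4 were *Fgf2* (-0.97) with the F2 gate alone, *Fgf7* with clusters (-0.95, adjusted p = 0.0526) and with the F1 gate alone (-0.27) in the Tom+ injury comparison, and *Fgfr2* in mural cells with stricter cells (-7.29, adjusted p = 0.0965; 0 UMIs in the class). No value was had, because the gene did not pass the count filter, for *Fgf2* after injury in the F1 gate, for *Fgfr2* with clusters in lining, tenocyte-lineage and mural cells, and for *Fgfr2* in the lining without cycling cells or without Tom+ steady-state library 2. The gates F1 and F2 alone, the sublining with Lrrc15+ cells and all stromal cells were settings chosen after seeing the data. The number of members called in the Tom+ sublining after injury was 1 with clusters (*Fgf2*), 0 with the F1 gate alone, 1 with the F2 gate alone, and from 0 to 3 on leaving out 1 library. Without the filter on low counts 1 member passed in Tom+ F4 cells (*Fgf2*), 1 in Prg4+ Creb5+ cells (*Fgf7*) and 3 in Lrrc15+ cells, where clusters and stricter cells gave 2 each. The F2 gate alone gave 1 in the Tom-GFP+ sublining (*Fgf7*). On leaving out 1 library the counts ran from 0 to 1 in F4 after injury and in the Tom-GFP+ sublining, from 1 to 2 in Lrrc15+ cells and from 2 to 3 in osteoblast-lineage cells. These settings can change which genes are tested and how many of all genes pass. That share is not given for them, so their counts of members are not read against it. Unthinned shares were 40.4% (*Fgf7*), 13.1% (*Fgf18*) and 68.4% (*Fgfr1*) in the sublining, 72.6% (*Fgfr2*) in osteoblast-lineage and 46.5% (*Fgfr3*) in chondrocyte-lineage cells; deeper reading sees more cells. The cause of the other shifts was not tested. Sparse genes (*Fgf2*, *Fgf10*, *Fgfr3*) are limited by depth.

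Whether replicate numbers pair these libraries could not be settled. Same-numbered libraries of different groups had correlations of deviations from -0.05 to 0.24, and differently numbered ones from -0.40 to 0.40. In the smallest groups with replicates the deviations from the group mean mirror each other, so such correlations cannot exclude pairing. With the replicate number as a block, 3 members passed in the Tom+ sublining after injury (*Fgf2*, *Fgf7* and *Fgf10* at -2.94, adjusted p = 0.029, edgeR), and it changed no other call of a member in the 4 comparisons that allow such a fit. The share of all genes that passed with this block is not given here.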
